A study of Mus musculus with 42 samples.

Results

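The smooth muscle contractile genes examined here were Acta2, Tagln, Cnn1, Myh11, Mylk, Myl9, Tpm1 and Tpm2, 8 of the 24225 genes in the deposited table, chosen by symbol. They were followed through the differentiation of mouse embryonic stem (ES) cells into embryoid bodies, floating aggregates that form once leukaemia inhibitory factor is withdrawn. The groups were AMPK DKO cells (lines K1 and K3) and WT cells (lines W1 and W2), all C57Bl/6-derived and grown on irradiated feeder cells that were removed before use. DKO stands for a double knockout of the AMPK catalytic subunits, encoded by Prkaa1 and Prkaa2. AMPK is a kinase that responds to low cellular energy. Medium held 2.5 mM glucose (low, LG) or 25 mM glucose (high, HG), and embryoid bodies were collected on days 2, 4, 8 and 12. The series title links AMPK to lineage specification and to Tfeb, a regulator of lysosomal genes.

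In smooth muscle, force comes from myosin thick filaments pulling on thin filaments of actin and tropomyosin. Acta2 encodes smooth muscle alpha-actin, Tpm1 and Tpm2 encode tropomyosins that wind along actin, and Cnn1 (calponin) and Tagln (transgelin, also called SM22 alpha) encode actin-binding proteins. Myh11 encodes the smooth muscle myosin heavy chain, Myl9 the regulatory light chain, and Mylk the kinase that phosphorylates this light chain to start contraction. Several of these genes are not restricted to smooth muscle, since embryonic heart cells and activated fibroblasts also transcribe Acta2 and Tagln, and many cell types transcribe Tpm1. Serum response factor (Srf) binds a short element, the CArG box, near many of these genes and acts with the coactivators Myocd and Mkl1.

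Expression was given as RPKM, reads scaled to transcript length and to library size, so levels of different genes are compared per length. The 42 libraries held 10500000 to 25500000 reads. Headings and expression disagreed in 18 libraries, by Prkaa2 (WT above 1 RPKM), by Txnip, a transcript induced by glucose (HG above 5 RPKM), or by the line markers Ddx3y and Meg3. The line marker ranges were taken from an earlier analysis of these data and are not an independent check. They alone left out 4 libraries. The comparisons below use the other 24 libraries, called heading-matched, with 11 of DKO and 13 of WT cells, and no library was moved to another group. They were selected by Prkaa2, so its split at 1 RPKM was fixed in advance. In them Prkaa2 lay between 0.019 and 0.959 RPKM in DKO and between 1.32 and 22.3 RPKM in WT libraries. The highest DKO values were those of K3 on days 8 and 12, at 0.617 to 0.959 RPKM. Prkaa1 still gave 4.01 to 6.63 RPKM in DKO libraries, against 6.53 to 11.2 RPKM in WT libraries, and gene-level values include exons outside a deletion. One value per line and condition entered each test, so the line was the replicate. DKO cells in HG at days 8 and 12 were represented by K3 alone and WT cells in LG at days 8 and 12 by W1 alone, so that line and genotype cannot be told apart there. Libraries were bulk, in which fewer cells of a type and less RNA per cell cannot be told apart.

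The proximal promoters of Acta2 and Myl9 are shown because they carry CArG boxes or near matches within the window examined, from 250 bases before to 50 bases after the annotated start. Both are from RefSeq (GRCm38.p6), 5′ to 3′ along the gene, with the elements in capitals. The Acta2 window is chr19:34255324-34255623 on the minus strand, and the Myl9 window chr2:156775214-156775513 on the plus strand.
Acta2: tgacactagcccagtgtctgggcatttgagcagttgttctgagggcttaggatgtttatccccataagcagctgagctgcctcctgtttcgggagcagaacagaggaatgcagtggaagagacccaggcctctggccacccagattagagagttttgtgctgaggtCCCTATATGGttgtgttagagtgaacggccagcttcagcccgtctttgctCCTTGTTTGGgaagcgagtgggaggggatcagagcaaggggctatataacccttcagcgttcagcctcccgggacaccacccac
Myl9: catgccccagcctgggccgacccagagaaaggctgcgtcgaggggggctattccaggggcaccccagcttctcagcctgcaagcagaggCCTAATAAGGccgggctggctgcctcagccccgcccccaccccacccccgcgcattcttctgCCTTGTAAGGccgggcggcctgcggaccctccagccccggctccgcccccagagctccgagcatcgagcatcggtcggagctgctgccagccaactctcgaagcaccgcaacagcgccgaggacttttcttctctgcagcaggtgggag
The CArG box reads the same on both strands. Myl9 held 1 exact box at -161 and 1 element with a single departing core base at -99, counted from the annotated start to the first base of the element. Acta2 held no exact box and 2 elements with a single departing core base, at -84 and -34. No such element was found in the windows of Cnn1, Mylk, Tpm1 and Tpm2. Among 32851 promoter windows of the same length, 1.63% held an exact box and 8.5% an element with 1 departing core base. The tables used here had promoter entries for 6 of the 8 genes, without Tagln and Myh11.

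Low glucose over time was followed first, in 15 heading-matched libraries. Acta2 (chromosome 19, 34240336 to 34255373, mm10, minus strand) was at 0 and 0.12 RPKM in the DKO lines on day 2, at 0.1 and 0.248 on day 4, at 43.5 and 32.3 on day 8, and at 56.2 and 230.5 on day 12, for K1 and K3 in that order. In WT cells it was at 0.069 (W1) and 0 RPKM (W2) on day 2, at 0.408 and 0.477 (W1) and 0.186 (W2) on day 4, at 13.4 (W1) on day 8 and at 20.8 (W1) on day 12. Acta2, the actin that defines the contractile filament of smooth muscle, was thus under 0.5 RPKM up to day 4 in both genotypes and at 13.4 RPKM or more in each later LG library. Of its 50-base stretches 0.352% also occur in Actg1 or its copies, so few of its reads could be shared. By limma on log2(RPKM + 1), with Benjamini-Hochberg adjustment over 14670 genes, its day 12 minus day 2 difference was 6.76 ± 0.48 in DKO (SE, adjusted p = 7.4e-07) and 4.40 ± 0.59 in WT cells (adjusted p = 6.4e-05). Fold differences of low genes are understated on this scale.

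Tagln (chromosome 9, 45929628 to 45936058, minus strand) reached its highest LG level on day 8 in DKO cells. It was at 0.712 and 1.48 RPKM in DKO lines K1 and K3 on day 2, at 2.75 and 16.6 on day 4, at 104.7 and 42.2 on day 8, and at 28.8 and 34.8 on day 12. WT cells had 0.746 (W1) and 0.856 RPKM (W2) on day 2, 20.4 and 8.87 (W1) and 11.6 (W2) on day 4, 9.79 (W1) on day 8 and 7.21 (W1) on day 12. In DKO cells both lines were thus higher on day 8 than on day 12, while W1 was lower on both days than in 1 of its 2 day 4 libraries. Tagln exons overlap those of the antisense gene Gm48529 and of Pcsk7 on the opposite strand. Strand was not recorded, so reads of these genes cannot be told apart.

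Cnn1 (chromosome 9, 22099253 to 22109221, plus strand), the calponin gene, had a different time course from Acta2. In LG it was at 2.39 and 1.98 RPKM in K1 and K3 on day 2, at 4.58 and 6.63 on day 4, at 6.23 and 4.80 on day 8, and at 2.41 and 1.88 on day 12. WT cells had 1.85 (W1) and 1.29 RPKM (W2) on day 2, 6.49 and 4.07 (W1) and 4.84 (W2) on day 4, 1.63 (W1) on day 8 and 0.28 (W1) on day 12. DKO levels on day 12 were close to those of day 2, and the W1 level on day 12 was below both WT levels of day 2. The day 12 minus day 2 difference was -0.02 (95% interval -0.44 to 0.40) in DKO and -0.995 (-1.51 to -0.48) in WT cells (adjusted p = 0.0037, limma). After quantile scaling the DKO difference was -0.60 and passed the threshold (adjusted p = 0.017).

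Tpm1 (chromosome 9, 67022593 to 67049213, minus strand) had the highest level of the 8 genes in each of the 24 libraries. In LG it was at 26.2 and 36.6 RPKM in K1 and K3 on day 2, 51.1 and 82.6 on day 4, 487.6 and 551.1 on day 8, and 205.7 and 358.9 on day 12. WT cells had 28.8 (W1) and 26.8 RPKM (W2) on day 2, 120.3 and 80.9 (W1) and 97.1 (W2) on day 4, 153.8 (W1) on day 8 and 124.4 (W1) on day 12. The DKO lines were far above W1 on day 8, having been below the highest WT library on day 4. Tpm2 (chromosome 4, 43513726 to 43523554, minus strand), the other tropomyosin gene, was at 9.43 and 12.4 RPKM in K1 and K3 on LG day 2, 14.2 and 17.2 on day 4, 21.3 and 22.7 on day 8, and 16.7 and 24.8 on day 12. WT cells had 9.27 (W1) and 8.91 RPKM (W2) on day 2, 17.9 and 12.9 (W1) and 16.1 (W2) on day 4, 9.89 (W1) on day 8 and 4.30 (W1) on day 12. From day 2 to day 12 Tpm2 was higher in DKO cells by 0.85 ± 0.18 (SE, adjusted p = 0.0022) and lower in WT cells, with a difference of -0.93 ± 0.23 (adjusted p = 0.0041, limma).

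Of the genes of the thick filament and its activation, Myl9, Mylk and Myh11, Myl9 (chromosome 2, 156775464 to 156781657, plus strand) had the highest LG levels. It was at 0.261 and 1.25 RPKM in K1 and K3 on LG day 2, 3.26 and 8.11 on day 4, 22.8 and 7.98 on day 8, and 19.98 and 17.3 on day 12. In WT cells it was at 1.15 (W1) and 0.812 RPKM (W2) on day 2, 7.14 and 3.72 (W1) and 2.41 (W2) on day 4, 7.97 (W1) on day 8 and 8.96 (W1) on day 12. K3 and W1 had nearly the same Myl9 level on day 8, and both DKO lines were above W1 on day 12. Mylk (chromosome 16, 34784950 to 35002434, plus strand) stayed at or below 2.07 RPKM in the 42 libraries. Its exons overlap antisense genes (E130310I04Rik and Gm21691), whose reads cannot be told apart from its own. Its highest LG levels were 1.56 and 1.5 RPKM in K1 and K3 on day 12, against 0.865 RPKM in W1. Myh11 (chromosome 16, 14194527 to 14291408, minus strand) did not exceed 0.206 RPKM, or 17 reads, in any of the 42 libraries. Its level did not pass the filter of 1 RPKM in 2 values, so it was not tested, and the heavy chain that defines mature smooth muscle was at or near 0 throughout.

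**Figure D1:**
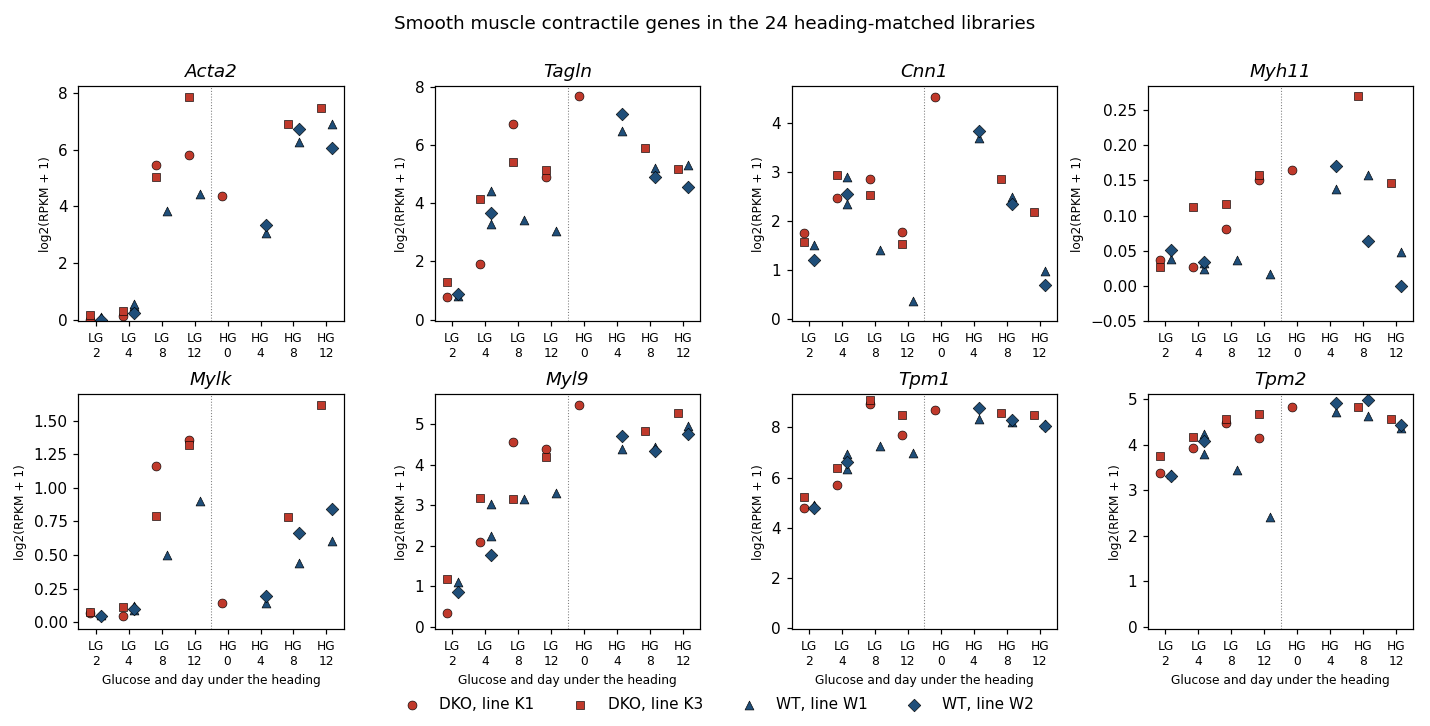
Level of each gene, log2(RPKM + 1), in the 24 heading-matched libraries by glucose and day (LG days 2 to 12, then HG days 0 to 12); each point is 1 library, red for DKO lines K1 and K3 and blue for WT lines W1 and W2. Acta2 was under 0.5 RPKM in LG up to day 4 and reached 230.5 RPKM in K3 on LG day 12; vertical axes differ between panels, and the day of the single point at HG day 0 is in doubt.

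A total of 7 genes could be tested. From day 2 to day 12 in LG, 6 of the 7 were higher in DKO cells and 0 lower, where 33.4% of all genes tested were higher and 50.9% differed. In WT cells 5 were higher (Acta2, Tagln, Mylk, Myl9 and Tpm1) and 2 lower (Cnn1 and Tpm2), where 30.0% of all genes were higher, 24.4% lower and 54.3% differed. The median difference was 3.09 over the members in DKO and 2.12 in WT cells, beside 0.19 and 0.10 over all genes. Mylk passed the filter through 4 values of at least 1 RPKM, all DKO, and 0 of WT cells, so its part in these counts follows in part from the filter. An F test of whether the genotypes differed in their course over the 4 LG days passed for 3 of the 7 genes, where 10.6% of all genes passed. They were Tpm2 (adjusted p = 0.0049), Tpm1 (adjusted p = 0.0146) and Cnn1 (adjusted p = 0.0357). The Cnn1 call was lost without a filter on low values (adjusted p = 0.0503), after quantile scaling (0.0555) and without K1 (0.075). Without W2 the WT count was 4 and the course test passed for 0 of 7 genes. With the 42 libraries under their headings the counts were 5 for DKO, 0 for WT and 0 for the course test.

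Genotypes were next compared within each LG day. On days 2 and 4 none of the 7 genes differed between DKO and WT cells by limma, where 0.150% and 1.67% of all genes did. At an unadjusted p under 0.05 the counts were 0 on day 2 and 1 on day 4 (Tpm1, -0.58 ± 0.27 SE). The 95% interval on day 4 was -1.16 to -0.01 for Tpm1 and -1.998 to 0.53 for Tagln. Without K3, 2 genes were lower in DKO cells on day 4, Tagln (-1.85, adjusted p = 0.037) and Tpm1 (-0.92, adjusted p = 0.039). For both genes K1 lay below every WT library, while K3 lay within the WT range.

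On LG day 8, 4 of the 7 genes were higher in DKO cells and 0 lower, where 11.0% of all genes tested were higher and 18.9% differed in either direction. They were the actin-binding and tropomyosin genes, Tagln by 2.65 ± 0.71 (SE, adjusted p = 0.025), Tpm1 by 1.75 ± 0.32 (adjusted p = 0.0054), Cnn1 by 1.30 ± 0.24 (adjusted p = 0.0052) and Tpm2 by 1.08 ± 0.23 (adjusted p = 0.0092). K1 and K3 both lay above W1 for all 7 genes tested, as they did for 46.0% of all genes. Mylk, 1 of these 7, passed the filter only through DKO values, so its part in this count follows in part from the filter. Acta2 was among these 7, but its difference of 1.42 ± 0.59 missed the threshold (adjusted p = 0.108). For Myl9, K3 (7.98 RPKM) and W1 (7.97 RPKM) were alike, and its difference was 0.70 (95% interval -0.51 to 1.92). The median over the 7 genes was 1.30, beside 0.10 over all genes.

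By LG day 12, 5 of the 7 genes were higher in DKO cells and 0 lower, where 22.3% of all genes tested were higher and 35.3% differed in either direction. Acta2, the smooth muscle actin, differed by 2.401 ± 0.59 (SE, adjusted p = 0.0082), with 56.2 and 230.5 RPKM in K1 and K3 against 20.8 RPKM in W1. Tpm2 had 16.7 and 24.8 RPKM in the DKO lines and 4.30 RPKM in W1, a difference of 2.01 ± 0.23 (adjusted p = 0.00013). Cnn1 differed by 1.29 ± 0.24 (adjusted p = 0.0019), Tpm1 by 1.12 ± 0.32 (adjusted p = 0.019) and Tagln by 1.99 ± 0.71 (adjusted p = 0.046). Both DKO lines lay above W1 for these 5 genes and for Mylk and Myl9, as they did for 49.2% of all genes. For Mylk this order follows in part from the filter, which it passed only through DKO values. The Myl9 difference of 0.98 ± 0.56 missed the threshold (adjusted p = 0.194). The Tagln call was lost at a pseudocount of 0.1 (adjusted p = 0.061), without a filter (0.077), after median-of-ratios scaling (0.059) and with the replicate block (0.052). The median over the 7 genes was 1.29, beside 0.16 over all genes, a shift that fell to 0.05 after median-of-ratios scaling.

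These LG results rest on W1 as the WT line. Without W2, which lent only its spread, the counts were 0 on day 8 and 2 on day 12 (Cnn1 and Tpm2), and without K3 they were 7 and 6. With the 42 libraries under their headings the counts were 0 and 0. With the 28 libraries whose Prkaa2 and Txnip match their headings they were 1 and 1. The left-out libraries headed W2, LG days 8 and 12, had Prkaa2 at 0.416 and 0.04 RPKM and Txnip at 65.2 and 190.3 RPKM, against their headings. In them Acta2 was at 0.085 and 0.018 RPKM, Tagln at 2.57 and 1.35 RPKM and Cnn1 at 5.18 and 1.9 RPKM. Tpm1 was at 40.2 and 41.8 RPKM and Tpm2 at 18.6 and 16.2 RPKM. A further 3 left-out libraries bear on these comparisons. The libraries labelled W2 ESC and K3 ESC, from stem cells in HG by heading, had Prkaa2 at 12.6 and 18.1 RPKM and Txnip at 0.997 and 2.18 RPKM, which reads as WT and low glucose. The library labelled W1 ESC, with Prkaa2 at 2.02 RPKM and Txnip at 0.465 RPKM, reads the same, and its line markers also go against its heading. The day of these 3 is not known. Acta2 was at 72.3 and 46.1 RPKM in the libraries labelled W2 ESC and K3 ESC, above W1 on LG days 8 and 12 and within the 32.3 to 230.5 RPKM of the DKO lines over those days. Tagln was at 26.2 and 15.8 RPKM, between the levels of W1 and those of the DKO lines. Tpm1 at 192.1 and 172.7 RPKM and Tpm2 at 13.8 and 9.55 RPKM lay below the DKO lines on both days. Cnn1 was at 2.15 RPKM in the library labelled W2 ESC, within the DKO range of day 12, and at 0.675 RPKM in the library labelled K3 ESC. Mylk was at 0.311 and 1.04 RPKM and Myl9 at 4.83 and 14.4 RPKM in these libraries, in the same order. Compared with W1 on LG days 8 and 12, Mylk and Myl9 were lower in the library labelled W2 ESC and higher in that labelled K3 ESC. The library labelled W1 ESC was unlike those labelled W2 ESC and K3 ESC. It had Acta2 at 0.477 RPKM, Tagln at 40.6 RPKM and Cnn1 at 7.18 RPKM. Tpm1 was at 163.8 RPKM, Tpm2 at 19.7 RPKM, Myl9 at 7.87 RPKM and Mylk at 0.049 RPKM.

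**Figure D2:**
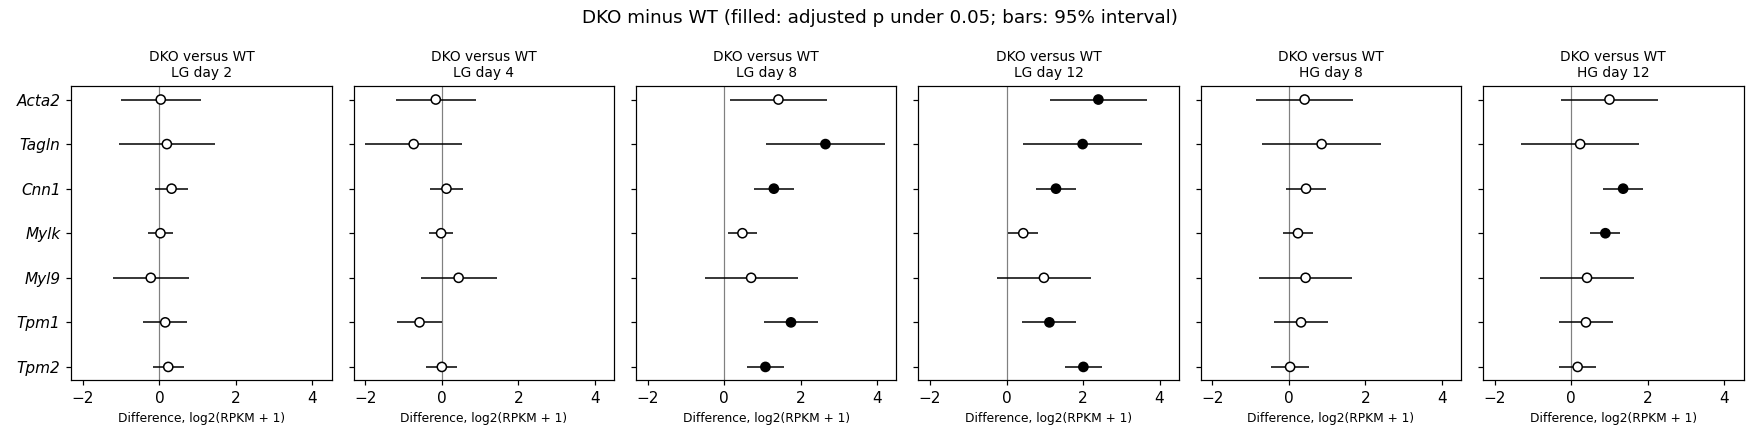
Difference between DKO and WT cells in log2(RPKM + 1) for the 7 genes tested, by glucose and day; points are limma estimates, bars 95% intervals, and filled points passed an adjusted p of 0.05. Filled points number 0, 0, 4 and 5 on LG days 2, 4, 8 and 12, and 0 and 2 on HG days 8 and 12, where Mylk, 1 of those 2, passed the filter only through DKO values.

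In high glucose fewer of the genes passed between genotypes than in low glucose, although only Tpm2 on day 12 passed the test of that difference itself. On HG day 8, Acta2 was at 119.4 RPKM in K3, against 76.5 RPKM in W1 and 104.8 RPKM in W2. Tagln was at 59.4 RPKM in K3, against 36.3 and 28.8 RPKM in W1 and W2, and Tpm1 at 380.0 RPKM, against 294.4 and 315.4 RPKM. K3 was above both WT lines for these 3 genes and for Cnn1, Mylk and Myl9, and between them for Tpm2. The share of all genes ordered in this way was not counted, and Mylk passed the filter only through DKO values. By limma 0 of the 7 genes tested differed, where 15.3% of all genes did, and 0 also at an unadjusted p under 0.05. Without a filter on low values Myh11 entered the test and passed (0.16, adjusted p = 0.038), at 0.206 RPKM in K3, or 17 reads, against 0.116 and 0.045 RPKM in W1 and W2.

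On HG day 12, 2 of the 7 genes were higher in DKO cells and 0 lower, where 20.2% of all genes tested were higher and 32.2% differed. Cnn1 was at 3.55 RPKM in K3, against 0.971 and 0.603 RPKM in W1 and W2, a difference of 1.36 ± 0.24 (SE, adjusted p = 0.0020). Mylk was at 2.07 RPKM in K3, against 0.523 and 0.793 RPKM, a difference of 0.89 ± 0.18 (adjusted p = 0.0038), but this gene passed the filter only through DKO values, so that Cnn1 alone of the 2 is free of the filter. Acta2 was at 180.0 RPKM in K3, against 119.9 and 66.9 RPKM, and did not pass (1.00, 95% interval -0.28 to 2.27). Tagln overlapped, with 35.1 RPKM in K3 between 38.6 RPKM in W1 and 22.9 RPKM in W2. Left out by its line markers alone, the library headed K1, HG day 12, had Prkaa2 at 0.555 RPKM and Txnip at 71.5 RPKM. In it Acta2 was at 1.38 RPKM, Tpm1 at 126.5 RPKM, Cnn1 at 7.03 RPKM and Mylk at 0.112 RPKM. With Prkaa2 and Txnip alone as the criterion the Mylk difference was 0.16 (adjusted p = 0.725, limma). The Cnn1 difference on LG day 12 minus that on HG day 12 was -0.06 (95% interval -0.80 to 0.67). Without W1 or without W2 no gene passed, and under all 42 headings the count was 0, so these calls rest on K3 set against both WT lines.

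Glucose was compared within each genotype. In WT cells on day 4, 6 of the 7 genes were lower in LG than in HG and 0 higher, where 7.86% of all genes tested were lower and 12.2% differed. Acta2 was at 0.408 and 0.477 RPKM (W1) and 0.186 RPKM (W2) in LG, against 7.34 (W1) and 9.18 RPKM (W2) in HG, a difference of -2.82 ± 0.48 (SE, adjusted p = 0.0041, limma). Tagln was at 20.4 and 8.87 RPKM (W1) and 11.6 RPKM (W2) in LG, against 89.6 and 132.2 RPKM in HG, a difference of -3.02 ± 0.58 (adjusted p = 0.0074). Both lines were lower in LG for each of these genes, and no LG library reached an HG one. The share of all genes separated in this way was not counted. Myl9 differed by -2.36 ± 0.46, Tpm1 by -1.92 ± 0.27, Cnn1 by -1.19 ± 0.19 and Tpm2 by -0.77 ± 0.18, with adjusted p between 0.0018 and 0.021. Cnn1, at 12.0 and 13.3 RPKM in HG, was then at its highest among embryoid body libraries.

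The day 4 call needs both WT lines, since 0 genes passed without W1 and 0 without W2, and 0 with the 42 libraries under their headings. The second columns headed W1 and W2, HG day 4, whose line markers go against their headings, had Acta2 at 0.132 and 0.083 RPKM and Tagln at 1.74 and 2.33 RPKM. The second W2 column also had Prkaa2 at 0.274 RPKM, below the WT threshold, so it goes against the label WT too. Acta2 and Tagln were lower in these columns than in every heading-matched WT library of LG day 4. After median-of-ratios or quantile scaling Tpm2 missed the threshold, with adjusted p of 0.053 and 0.061.

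On day 8 in WT cells, 3 of the 7 genes were lower in LG and 0 higher, where 2.68% of all genes tested were lower and 3.31% differed. Acta2 had 13.4 RPKM in LG (W1), against 76.5 and 104.8 RPKM in HG, a difference of -2.65 ± 0.59 (SE, adjusted p = 0.032). Tpm2 differed by -1.37 ± 0.23 (adjusted p = 0.0080) and Cnn1 by -1.01 ± 0.24 (adjusted p = 0.040), a call lost after quantile scaling (-0.80, adjusted p = 0.083). On day 12, 1 gene was lower, where 2.57% of all genes were lower and 3.56% differed. This was Tpm2, at 4.30 RPKM in LG, against 19.7 and 20.6 RPKM in HG (-1.999 ± 0.23, adjusted p = 0.00067). With the line as a replicate block the day 12 count was 3, adding Acta2 (-2.08, adjusted p = 0.048) and Tpm1 (-1.13, adjusted p = 0.027). Without W2 the counts were 0 and 0 and without K1 or without K3, which changes only the pooled spread, they were 5 and 5. At a pseudocount of 0.1 the day 8 count was 1, with Acta2 and Cnn1 at adjusted p of 0.082 and 0.056. Under all 42 headings both counts were 0.

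In DKO cells 0 of the 7 genes differed between LG and HG by limma on day 8 or on day 12, where 1.75% and 2.10% of all genes did. At an unadjusted p under 0.05 the count was 1 on each day, Acta2 on day 8 (-1.65, 95% interval -2.92 to -0.37) and Cnn1 on day 12 (-0.54, -1.06 to -0.02). On day 8 Acta2 was at 43.5 and 32.3 RPKM in LG, against 119.4 RPKM in HG, so both LG values were lower. On day 12 the LG values of 56.2 and 230.5 RPKM spanned the HG value of 180.0 RPKM, which is from K3 alone. The library headed K1, HG day 12, left out by its line markers, had 1.38 RPKM. Tpm2 stayed within 16.7 to 24.8 RPKM in LG on days 8 and 12, against 27.7 and 22.8 RPKM in HG.

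Whether the glucose difference itself depended on genotype was tested by an interaction term, added after the data were seen. On day 12 it passed for 1 of 7 genes, Tpm2 (1.84 ± 0.32 SE, adjusted p = 0.028), where 0.375% of all genes passed. On day 8 it passed for 0 of 7 genes, where 0.102% of all genes passed, and at an unadjusted p under 0.05 for 3 (Cnn1, Tpm1 and Tpm2). The genotype difference in Acta2 was larger in LG than in HG by 1.01 (95% interval -0.80 to 2.81) on day 8 and by 1.40 (-0.40 to 3.21) on day 12, so a dependence on glucose was not shown for this gene. The Tpm2 call was lost at a pseudocount of 0.1 (adjusted p = 0.074), after quantile scaling (0.053) and with Prkaa2 and Txnip alone (0.054). It was also lost without W2 and under the 42 headings.

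**Figure D3:**
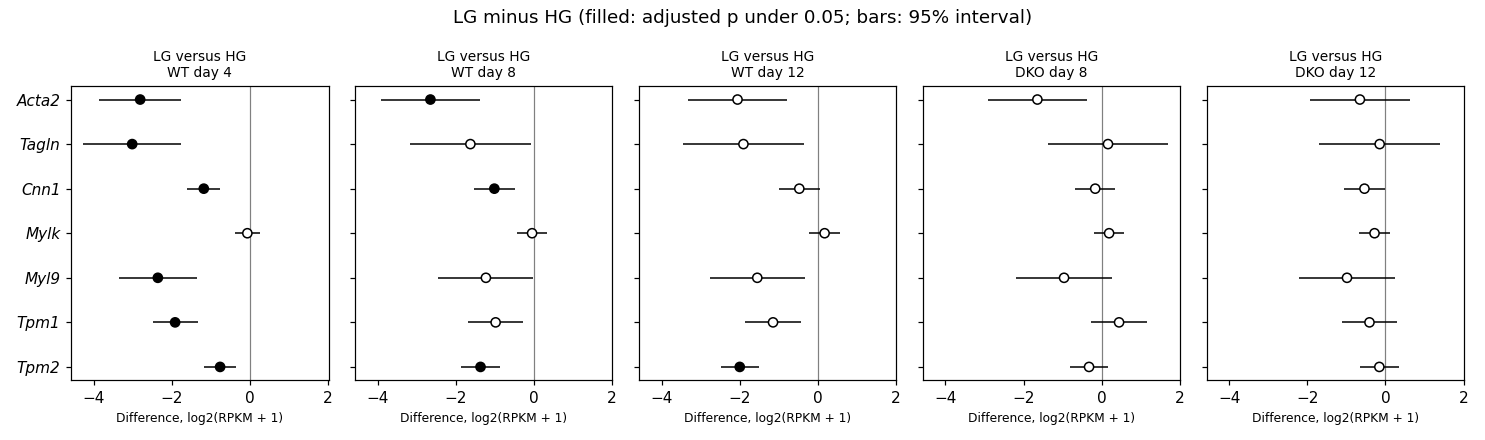
Difference between LG and HG in log2(RPKM + 1) for the 7 genes tested, in WT cells on days 4, 8 and 12 and in DKO cells on days 8 and 12; points are limma estimates, bars 95% intervals, and filled points passed an adjusted p of 0.05. WT panels hold 6, 3 and 1 filled points, all below 0, and DKO panels hold 0.

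The members did not move as one block in high glucose either. Between days 4 and 12 in WT cells, a comparison added after the data were seen, 2 of the 7 genes were higher and 2 lower on day 12, where 22.2% and 27.0% of all genes tested were (49.2% in all). Acta2 was at 119.9 (W1) and 66.9 RPKM (W2) on day 12, against 7.34 and 9.18 RPKM on day 4 (3.30 ± 0.48 SE, adjusted p = 0.00015, limma). Mylk, the light chain kinase gene, was higher by 0.55 ± 0.15 (adjusted p = 0.0077). Cnn1 fell to 0.971 and 0.603 RPKM on day 12, against 12.0 and 13.3 RPKM on day 4 (-2.94 ± 0.19, adjusted p = 5.4e-07). Tagln fell to 38.6 and 22.9 RPKM, against 89.6 and 132.2 RPKM (-1.84 ± 0.58, adjusted p = 0.020). In both WT lines the smooth muscle actin thus increased while both actin-binding protein genes decreased. The count was 1 without W1, 2 without W2 and 0 under all 42 headings, where the Tagln difference was 0.76.

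Across the 23 values of heading-matched lines and conditions, Pearson's r between members on log2(RPKM + 1) differed widely between pairs. It was 0.94 for Tagln and Tpm1, 0.92 for Myl9 and Tpm1, and 0.82 for Acta2 and Mylk. It was -0.06 for Acta2 and Cnn1 and -0.27 for Cnn1 and Mylk. Tagln lay between, at 0.67 with Acta2 and 0.60 with Cnn1. These values share lines, days and glucose levels and are not independent. They include the library labelled K1 ESC, whose day is in doubt and which had the highest Tagln, Cnn1 and Myl9 levels. Correlations between members were not computed without it. By the same measure, the 10 genes most like the mean z score of the 8 members, of 12900 genes averaging at least 1 RPKM, had r between 0.94 and 0.96. They included Stx6, Dld, Traf3, Phlpp1, Rhobtb3, Vcl, Emd, Pdlim7 and Tm6sf1, of which Vcl encodes the actin-anchoring protein vinculin. With the 42 libraries under their headings 4 of these 10 stayed among the 10 most alike, and without K1 also 4.

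**Figure D4:**
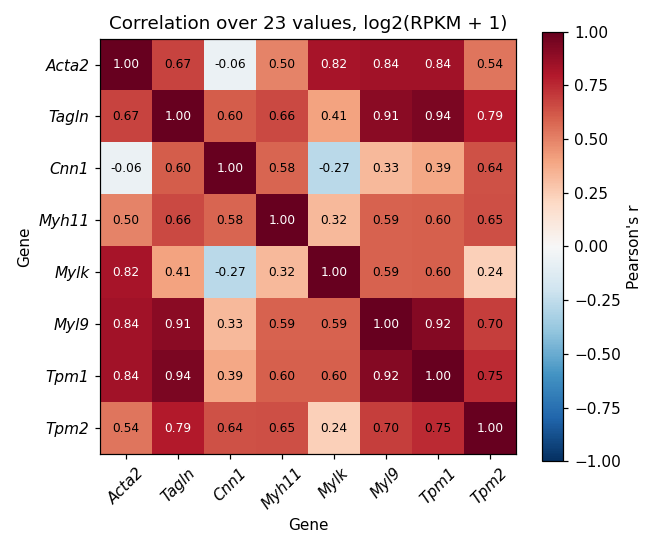
Pearson's r between the 8 genes on log2(RPKM + 1) over 23 values of line and condition; red is positive and blue negative. Tagln, Myl9 and Tpm1 correlate above 0.9 with one another, and Cnn1 is near 0 or below with Acta2 and Mylk. The values include the library labelled K1 ESC, whose day is in doubt.

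Regulators of the contractile genes were described from a list of 21. On LG day 8, 2 were higher and 2 lower in DKO cells, and on LG day 12, 6 were higher and 3 lower. These 4 of 21 and 9 of 21 were near the 18.9% and 35.3% of all genes that differed on those days. Klf4, known as a repressor of contractile genes in vascular smooth muscle, was at 5.21 and 13.7 RPKM in the DKO lines on LG day 12, against 83.8 RPKM in W1 (-3.15 ± 0.55 SE, adjusted p = 0.0015). Tgfbr2, a receptor for TGF-beta, was at 4.62 to 7.66 RPKM in DKO lines, against 17.1 RPKM in W1 (-1.38 ± 0.26, adjusted p = 0.0022). Pdgfrb, the platelet-derived growth factor receptor of mural cells, was at 12.7 to 21.3 RPKM in DKO lines, against 4.92 RPKM in W1 (1.56 ± 0.31, adjusted p = 0.0027). Srf was higher in DKO cells on LG day 8 (0.77 ± 0.23, adjusted p = 0.036), at 23.5 to 27.1 RPKM against 14.4 RPKM in W1. The list's median difference was 0.35 on LG day 12, below the 1.29 of the contractile members and beside 0.16 over all genes. Klf4 was also lower in DKO cells on HG day 12 (-3.10, K3 alone against W1 and W2), where 2 of the 7 contractile genes passed. A link between Klf4 and the contractile genes was not tested.

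Myocd, the coactivator of Srf in cardiac and smooth muscle, was lower in LG on day 8 in both genotypes. On that day it was at 0.283 to 0.466 RPKM in DKO lines in LG, against 5.41 RPKM in HG (-2.23 ± 0.23 SE, adjusted p = 0.00039). In WT cells on day 8 it was at 0.416 RPKM in LG, against 2.04 to 3.76 RPKM in HG (-1.42 ± 0.23, adjusted p = 0.0067). On day 12 it was lower in LG in DKO cells (-2.07, adjusted p = 0.00063), while the WT difference of -0.55, with 0.295 RPKM in LG against 0.728 to 1.09 RPKM in HG, did not pass (adjusted p = 0.218). On WT day 4 the difference was 0.04 (adjusted p = 0.932). On HG day 12 it was at 5.92 RPKM in K3, against 0.728 to 1.09 RPKM in WT lines (1.87 ± 0.23, adjusted p = 0.00032). Des, the intermediate filament desmin of muscle cells, was also lower in LG in both genotypes on day 8, with differences of -2.23 ± 0.34 in DKO (adjusted p = 0.0063) and -2.80 ± 0.34 in WT cells (adjusted p = 0.0013). In WT cells on day 4, 5 of 21 regulators were lower in LG and 0 higher, where 7.86% of all genes were lower. Srf (-0.99 ± 0.18, adjusted p = 0.0064) and Pdgfb (-1.63 ± 0.15, adjusted p = 0.00025) were among the 5.

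A second list held 25 other smooth muscle and actin cytoskeleton genes. On LG day 12, 7 of them were higher and 3 lower in DKO cells, with a median of 0.36, and these 10 of 25 were near the 35.3% of all genes that differed. Flna, an actin crosslinker, was at 114.4 to 136.2 RPKM in DKO lines, against 56.4 RPKM in W1 (1.13 ± 0.17 SE, adjusted p = 0.00062). Myh10, a nonmuscle myosin heavy chain, was at 66.99 to 105.9 RPKM, against 29.7 RPKM (1.47 ± 0.25, adjusted p = 0.0012). On LG day 8, 6 were higher and 1 lower, where 18.9% of all genes differed. On WT day 4, 12 were lower in LG and 0 higher, where 7.86% of all genes were lower, with Tagln2 at -1.76 ± 0.30 (adjusted p = 0.0040) and Cnn2 at -1.23 ± 0.19 (adjusted p = 0.0027).

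Markers of other cell types moved with the contractile genes in some of these comparisons. On LG day 12, where 35.3% of all genes tested differed, 6 of 9 visceral and parietal endoderm markers were lower in DKO cells and 0 higher, with summed levels of 459.5 to 633.3 RPKM in DKO libraries and 8772 RPKM in the WT library. Of 6 pluripotency markers 5 were higher and 0 lower, with sums of 279.2 to 304.1 RPKM in DKO libraries against 38.3 RPKM. Of 11 fibroblast markers tested 1 was higher and 4 lower, with sums of 388.7 to 598.8 RPKM against 1342 RPKM. Cardiac and striated muscle markers had 0 of 14 higher and 2 lower, with sums of 51.9 to 144.5 RPKM in DKO libraries against 103.9 RPKM, and Myog was listed at 0 in DKO and Myod1 in WT libraries. Endothelial markers had 2 of 8 higher and 4 lower, with sums of 56.1 to 74.8 RPKM against 85.0 RPKM. On LG day 8 the endoderm sums were 233.6 to 637.3 RPKM in DKO libraries against 4164 RPKM in the WT library, and the pluripotency sums 315.3 to 400.1 RPKM against 142.8 RPKM. On HG day 12, where 32.2% of all genes differed, 10 of 14 cardiac markers were higher in DKO cells and 0 lower, with sums of 1536 RPKM in the DKO library against 381.7 to 475.4 RPKM in WT libraries, and 1 of 11 fibroblast markers was higher and 7 lower. Of the 6 pluripotency markers 5 were higher and 0 lower there, with a sum of 205.8 RPKM in the DKO library against 21.8 to 33.2 RPKM in WT libraries. The part of these markers in the differences of the contractile genes was not tested.

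Cardiac markers were lower in LG in both genotypes. In DKO cells on day 12, 13 of 14 cardiac markers tested were lower in LG and 0 higher, where 2.10% of all genes differed. Their sums were 51.9 to 144.5 RPKM in LG against 1536 RPKM in HG, while 0 of 7 contractile genes passed. In WT cells on day 8, where 2.68% of all genes were lower in LG, 10 of 14 cardiac markers were lower. Their sum was 49.5 RPKM in LG against 333.7 to 876.5 RPKM in HG. On the same day 5 of 11 fibroblast markers were lower in LG and 0 higher, with a sum of 95.6 RPKM against 202.0 to 224.6 RPKM in HG. Of 8 endothelial markers 3 were lower and 0 higher, with a sum of 59.4 RPKM against 87.2 to 121.3 RPKM. On WT day 4 the cardiac sums were 5.43 to 5.83 RPKM in LG against 32.7 to 42.1 RPKM in HG. On that day 4 of 14 cardiac markers were lower, where 7.86% of all genes were lower. The difference between the lists was not tested. Acta2 and Tagln are also transcribed in embryonic heart cells, and the part of the cardiac, fibroblast and endothelial markers in the WT glucose differences was not tested.

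The library labelled K1 ESC matched its heading in genotype, glucose and line but entered no comparison, and its condition had no heading-matched WT library. It did count among the values of the fit and of the correlations. Its day is in doubt, since the sum of its pluripotency markers was 861.1 RPKM, against 1262 to 1284 RPKM in DKO libraries of LG day 2, and lay within the 856.4 to 877.0 RPKM of WT libraries of HG day 4. Pou5f1, the gene of the pluripotency factor Oct4, was at 310.9 RPKM in it, against 545.9 to 593.6 RPKM in DKO libraries of LG day 2. It had the highest levels of Tagln (204.0 RPKM), Cnn1 (22.4 RPKM) and Myl9 (43.9 RPKM) in the 42 libraries, with Acta2 at 19.7 RPKM. The other 3 libraries labelled ESC were contradicted by their markers, so no stem cell level of these genes is given.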

How the data were processed

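Messenger RNA libraries were made with a kit that does not mark strand, per the labels' protocols. The authors deposited RPKM values per gene with mm10 positions (per the file headers). Tools named in the submitters' processing notes, with no role given, were STAR 2.4.0k, HOMER, edgeR 3.6.8, FastQC 0.11.2 and R 3.1.1. Low RPKM values were whole multiples of 1 read, to within 0.1 read, in 100% of cases, which gave depths of 10500000 to 25500000 reads (median 15425000). No count model was run.

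Columns were assigned by heading. There were 6 day 4 headings that stood over 2 columns each, and same-line pairs were averaged on the log scale. No 2 libraries were identical. Heading-matched libraries had Prkaa2 above 1 RPKM in WT only, Txnip above 5 RPKM in HG only, Ddx3y under 2 (K1), 2 to 5 (W1), 5 to 10 (W2) or over 10 RPKM (K3), and Meg3 under 5 RPKM in W2 only. Of 18 libraries left out, 9 went against Prkaa2, 8 against Txnip and 15 against the line markers, 4 of them against the line markers alone. The line marker ranges came from an earlier analysis of these data.

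The main model was a limma-trend fit (limma 3.58.1, R 4.3.3) of log2(RPKM + 1), with 23 values, 14 group means and 9 residual degrees of freedom. It kept 14670 genes that reached 1 RPKM in 2 or more values. A lone line was taken to vary as lines of the other groups do. Benjamini-Hochberg adjustment ran over all kept genes (threshold 0.05), and p-values measure only the spread between these lines, 2 per genotype. The code was checked on simulated data. Values of the same line deviated together across conditions (smallest r 0.12 in WT and 0.17 in DKO lines), so a fit with the line as a replicate block (duplicateCorrelation, 0.195) was an alternative for comparisons within a genotype. Other alternatives were all 42 headings, Prkaa2 and Txnip alone, a pseudocount of 0.1, no filter, median-of-ratios and quantile scaling, and leaving out each line.

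The members and lists were chosen with earlier results of these data known. Named genes are the 8 members, up to 3 genes per list with the smallest adjusted p under 0.05 in a comparison, and the 10 genes most like the members' mean z score, of which 1 is not reported here. Promoters came from RefSeq tables and exon overlaps from GENCODE M21 (GRCm38).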

Additional observations from a re-analysis of the deposited data

Results flagged for a closer look

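The difference between DKO and WT cells changed over the 4 LG days by the F test for Tpm2 (adjusted p = 0.00491), Tpm1 (adjusted p = 0.0146) and Cnn1 (adjusted p = 0.0357). Tpm2 differed by 0.23 on day 2, 0.00 on day 4, 1.08 on day 8 and 2.01 on day 12 (log2). Tpm1 differed by 0.15, -0.58, 1.75 and 1.12 on the same days, and Cnn1 by 0.32, 0.12, 1.30 and 1.29. The glucose difference in Tpm2 on day 12 depended on genotype (adjusted p = 0.0276), with LG minus HG differences of -0.16 in DKO and -1.999 in WT cells.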

How the results depend on the processing

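Counts are of the 7 genes tested. With all 42 libraries under their headings, counts were 0 on LG days 8 and 12 between genotypes, 0 on HG day 12, 0 for glucose in WT cells on days 4, 8 and 12, 0 for day 12 against day 2 in WT LG, 0 for the genotype by day test, 0 for day 12 against day 4 in WT HG, and 0 for genotype by glucose on day 12. Day 12 against day 2 in DKO LG gave 5, against 6 in the heading-matched set. With Prkaa2 and Txnip alone as the criterion, the same comparisons gave 1, 1, 1, 0, 0, 1 (as in the heading-matched set), 4, 1, 2 and 0. The cause of these changes was not tested. Under the headings Tgfbr2 turned to 0.21 on LG day 8 and 0.50 on LG day 12, Myocd to -0.57 and Tgfbr1 to -0.10 on HG day 8 (against 0.75 and 0.67 in the heading-matched set), and Tagln to 0.76 for day 12 against day 4 in WT HG.

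A pseudocount of 0.1 gave 1 for glucose in WT cells on day 8 and 0 for genotype by glucose on day 12, which quantile scaling also brought to 0. No filter on low values admits Myh11 as an 8th gene and gave 1 on HG day 8, which was Myh11. Myh11 also passed there between genotypes on LG day 12 (0.14), for day 12 against day 2 in DKO LG (0.12) and for day 12 against day 4 in WT HG (-0.13). The replicate block gave 3 for glucose in WT cells on day 12 and changed no other count by more than 1.5 times; among member calls it also lost Tagln on LG day 12 (adjusted p = 0.052) and added Tagln in the genotype by day test (0.0495) and Tpm2 for day 12 against day 4 in WT HG (0.032).

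Leaving out 1 line at a time gave 0 to 2 on LG day 4, 0 to 7 on LG day 8, 2 to 6 on LG day 12, 0 to 3 on HG day 12, 0 to 6 for glucose in WT cells on day 4, 0 to 5 on day 8 and 0 to 5 on day 12, 4 to 7 for day 12 against day 2 in WT LG, 0 to 4 for genotype by day, 1 to 6 for day 12 against day 4 in WT HG, and 0 to 1 for genotype by glucose on day 12. Fits without W1 gave no value for WT LG on days 8 and 12, nor fits without K3 for DKO HG. No called member difference turned direction under another pseudocount, filter, scaling, block or left-out line. Levels under 1 RPKM rest on few reads, as for Myh11, with 17 reads at most.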
